A study of Mus musculus with 17 samples.

Results

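The 8 genes described here encode parts of the red cell membrane and proteins of the erythroid cell surface, together with 1 cytosolic enzyme that works beside them. They are Slc4a1, Ank1, Sptb, Epb42, Rhag, Tspan33, Car2 and Tfrc. The members were chosen by gene symbol from a table of 47069 listed genes and were followed by Ensembl identifier through 3 count tables, so that each has a value in all 17 libraries. The rule itself uses no measured value, but the set was proposed with earlier results of these data known. RNA sequencing counts per gene were deposited for mouse fetal liver cells in which the level of Arid3a, a DNA-binding transcription factor, was to be changed. The study sets miR-125b, a microRNA encoded on human chromosome 21, beside GATA1s in megakaryoblastic leukemia and asks about Arid3a as its target.

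All cells came from embryos of stage E12.5-13.5 of a strain on the B6J.129(Cg) background that carries the allele Gt(ROSA)26Sortm1.1 with CAG-cas9* and EGFP (Fezh/J), so that the broadly active CAG promoter drives Cas9 from the Rosa26 locus. A guide RNA against Gata1 (sgGata1) was carried by every group except WT, and the submitters call these cells Gata1s, after the short form of the erythroid and megakaryocytic factor GATA1. A second transgene set the groups. LUC (a luciferase control, 3 libraries) and Arid3a (3 libraries) had doxycycline at 1 µg/mL for 48 h. The groups sh-ctrl (a control hairpin, 3 libraries), shArid3a (a hairpin against Arid3a, 2 libraries, numbered 1 and 3) and miR-125b (3 libraries) had doxycycline at 1 µg/mL for 10 days. WT (3 libraries) carried a luciferase guide (sgLuc) and a luciferase hairpin (shLuc) and had no doxycycline. LUC and Arid3a lie in 1 table, sh-ctrl, shArid3a and miR-125b in another, and WT in a table of its own. WT therefore differs from the other groups in guide, second transgene, doxycycline and table together, which cannot be told apart, and no test was made across tables. Nothing in the labels says that replicates were separate cultures or litters, so p-values measure the spread between these libraries only, and the share of cells carrying the Gata1 edit is not given in the sources used here.

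In a mature red cell, the anion exchanger band 3 (Slc4a1) is held to a spectrin network by ankyrin (Ank1) and protein 4.2 (Epb42), with the Rh-associated glycoprotein (Rhag) in the same membrane complex, and β spectrin (Sptb) is a chain of the network itself. Early erythroid cells already carry the transferrin receptor (Tfrc), which takes up iron, while band 3, protein 4.2 and the complete skeleton accumulate late in maturation under GATA1 and KLF1. Carbonic anhydrase 2 (Car2) supplies bicarbonate to band 3 in red cells and is also made by other blood cells, and Tspan33 is a tetraspanin found on erythroid progenitors.

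The sequences searched were those matching the microRNA and those of the form bound by the iron regulatory proteins. Mature mouse miR-125b-5p (RefSeq, GRCm38.p6) is shown with its seed, bases 2 to 8, in capitals. The site of 7 bases complementary to the seed, CTCAGGG, was searched in the longest annotated 3′ untranslated region (UTR) of each member (GENCODE M21, GRCm38). It was found in 3 of the 8 members, and followed by an A (CTCAGGGA) in Ank1 and Sptb. In the following lines each match stands in capitals in 30 bases of the UTR.
mmu-miR-125b-5p: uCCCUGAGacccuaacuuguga
Sptb, chr12:76582607-76582636, minus strand: aggattctctcCTCAGGGctagtatgtccc
Sptb, chr12:76580650-76580679, minus strand: tcttggacaagCTCAGGGAggacacagaaa
Ank1, chr8:23149612-23149641, plus strand: ttctatctagaCTCAGGGccaggccaggaa
Ank1, chr8:23149666-23149695, plus strand: gccttggagccCTCAGGGAagagccttaac
Tfrc, chr16:32632262-32632291, plus strand: gtcactaggctCTCAGGGtcttggcaccac
Of all 21022 genes with such a UTR, 13.11% hold CTCAGGG and 4.595% hold CTCAGGGA, so that a match is common and is a description, not a measured site. The UTRs of Slc4a1, Epb42, Rhag, Tspan33 and Car2 do not hold these letters.

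Tfrc messenger RNA is known to be stabilised in iron-poor cells by iron regulatory proteins that bind stem-loops in its 3′ UTR. A stem-loop of this kind was searched as a C, 5 bases, the loop CAGTGN, and 5 bases pairing with the first 5. The 2458-base UTR of Tfrc held 4 of them, and it was the only gene of the 21022 with 3 or more, against 0.5756% of genes with at least 1. They are shown with the loop in capitals, as matches to this pattern and not as measured sites.
Tfrc, chr16:32631220-32631246, plus strand: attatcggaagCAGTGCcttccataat
Tfrc, chr16:32631599-32631625, plus strand: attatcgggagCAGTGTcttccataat
Tfrc, chr16:32631664-32631690, plus strand: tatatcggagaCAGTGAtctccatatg
Tfrc, chr16:32631711-32631737, plus strand: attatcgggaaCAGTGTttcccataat

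Library totals were 31339238 to 40859301 counts in the 14 Gata1s libraries and 16362439 to 19212193 in WT. Levels are given as CPM, counts relative to the library total after TMM scaling within a table, and a floor of 3 counts in a library stands at 0.0733 to 0.0966 CPM in Gata1s and 0.156 to 0.183 CPM in WT, for counting error only. Arid3a itself was at 67.2, 64.0 and 70.1 CPM in LUC and at 58.3, 74.3 and 80.1 CPM in the group labelled Arid3a, so the label was not matched by a higher count (log2 fold change 0.08, SE 0.12, adjusted p = 0.737). A transgene whose sequence differs from the annotated mouse gene would not be counted in full, and its sequence is not given in the sources used here, so this value does not show whether the transgene was expressed. The gene Arid3a stood at 45.2, 56.3 and 57.2 CPM in sh-ctrl and at 20.4 and 18.9 CPM in shArid3a. In miR-125b it was at 7.13, 9.75 and 10.0 CPM. Against sh-ctrl it fell by 1.43 (adjusted p = 0.0368) in shArid3a and by 2.56 (adjusted p = 0.000282) in miR-125b on the log2 scale. Its call in shArid3a was not kept in every setting. Without ribosomal RNA-like genes 0 genes were called there, and without sh-ctrl replicate 3 only 2, both higher. Counts per gene do not show the Gata1 edit. Adjusted p-values throughout are Benjamini-Hochberg values of edgeR's quasi-likelihood test over all genes tested in a table, called under 0.05.

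Markers of late red cell maturation were at or near 0. Alas2, the erythroid enzyme that starts heme synthesis, was at 0 to 0.764 CPM in all 17 libraries, and Dmtn (dematin) at 0 to 0.244 CPM. Summed levels of 15 megakaryocyte and platelet markers were 3018 to 5195 CPM in Gata1s and 1569 to 1780 CPM in WT. The sum of 12 myeloid markers was 9.79 to 168 CPM in Gata1s against 17511 to 22863 CPM in WT, 10 macrophage markers summed to 4.19 to 13.9 CPM against 205 to 242 CPM, and 10 mast cell and basophil markers to 185 to 1027 CPM against 1966 to 2221 CPM. Hepatocyte markers summed to 0.762 to 5.84 CPM in all 17 libraries, with albumin at 0 to 0.158 CPM. In bulk RNA, fewer cells of a type and less RNA per cell cannot be told apart, and the part these other cells have in the levels below was not tested.

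Slc4a1, band 3 (chr11:102348824-102366203, minus strand, ENSMUSG00000006574), was at or near 0. Of the 14 Gata1s libraries 12 held no count, and the other 2, both labelled Arid3a, held 1 count each, out of 498029968 counts in all. WT held 4, 2 and 3 counts. Every Gata1s library was under the floor of 3 counts, which stands at up to 0.0966 CPM in a single library. The gene passed the filter on low counts in neither of the tables that were tested.

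Ank1, erythroid ankyrin (chr8:22974844-23150497, plus strand, ENSMUSG00000031543), held 136, 126 and 130 counts in WT, or 8.30, 6.74 and 6.76 CPM. In Gata1s it held 5, 1 and 2 counts in LUC and 4, 34 and 30 in the libraries labelled Arid3a. It held 31, 4 and 0 in sh-ctrl, 9 and 0 in shArid3a, and 13, 0 and 0 in miR-125b. All WT libraries thus lay above all 14 Gata1s libraries, of which the highest reached 0.999 CPM. The gene overlaps 5 annotated genes, among them the microRNA gene Mir486 on its own strand. In the table with the hairpins it was tested but the spread was wide. The log2 fold change was -1.38 in shArid3a (adjusted p = 0.681) and -1.30 in miR-125b (adjusted p = 0.602) against sh-ctrl.

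Sptb, β spectrin (chr12:76580488-76710547, minus strand, ENSMUSG00000021061), stood at 45.0, 48.1 and 41.2 CPM in LUC and at 23.0, 59.7 and 51.3 CPM in the libraries labelled Arid3a. It was at 15.1, 42.7 and 43.5 CPM in sh-ctrl, at 17.6 and 16.9 CPM in shArid3a and at 7.84, 13.97 and 15.7 CPM in miR-125b. WT held 15.3, 17.9 and 18.9 CPM. In sh-ctrl, replicate 1 lay apart from the other two and overlapped the range of miR-125b. Against sh-ctrl, Sptb fell by 1.43 on the log2 scale in miR-125b (SE 0.38, adjusted p = 0.0241). The call was kept in 11 of 15 other settings and lost on leaving out sh-ctrl replicate 2 or 3 or miR-125b replicate 1 or 2 (adjusted p = 0.0639, 0.0941, 0.0626 and 0.0518), with log2 fold changes of -1.25, -1.22, -1.19 and -1.53. In shArid3a the log2 fold change of -0.97 (SE 0.43) did not pass (adjusted p = 0.186), and miR-125b against shArid3a gave -0.46. In GENCODE M21 the gene overlaps Plekhg3 on the other strand, and whether the counting used strand is not given in the sources used here. Plekhg3 was at 20.6, 26.9 and 26.7 CPM in sh-ctrl and at 10.7, 20.1 and 15.3 CPM in miR-125b (log2 fold change -0.69, adjusted p = 0.0540), and its part in the counts of Sptb was not tested.

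Epb42, protein 4.2 (chr2:121017891-121037072, minus strand, ENSMUSG00000023216), lay at a few CPM. It was at 0.938, 1.11 and 1.19 CPM in LUC and at 1.54, 2.70 and 2.73 CPM in the libraries labelled Arid3a, with no overlap. It was at 2.03, 3.16 and 5.20 CPM in sh-ctrl, 2.45 and 2.24 CPM in shArid3a and 0.159, 0.626 and 2.10 CPM in miR-125b, where the highest miR-125b library overlapped the lowest control. WT held 0.855, 1.07 and 1.40 CPM, close to LUC. The log2 fold change was 1.11 (SE 0.32, adjusted p = 0.123) for the libraries labelled Arid3a against LUC. It was -1.84 (SE 0.71, adjusted p = 0.0835) for miR-125b against sh-ctrl. Same-numbered libraries of this last pair of groups correlated at 0.427, 0.151 and 0.294 in their deviations from the group means. The labels name no shared source, and miR-125b replicate 2 was most like sh-ctrl replicate 3. With a replicate block, as an alternative fit, Epb42 was called at -2.07 (adjusted p = 0.0277). DESeq2 called it too (adjusted p = 0.0251). On leaving out 1 library it ran from -1.34, without miR-125b replicate 1, to -3.11, without miR-125b replicate 3, where it was called (adjusted p = 0.0246). In shArid3a it was -0.57 (adjusted p = 0.672).

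Rhag, which carries ammonia and gas across the membrane beside band 3 (chr17:40811126-40840754, plus strand, ENSMUSG00000023926), had fold changes of the opposite sign to those of Sptb and Epb42 against sh-ctrl. LUC held 1.11, 0.948 and 1.77 CPM and the libraries labelled Arid3a held 0.358, 1.26 and 1.45 CPM. It was at 4.72, 1.17 and 1.56 CPM in sh-ctrl, at 18.1 and 4.30 CPM in shArid3a and at 17.9, 3.29 and 7.0 CPM in miR-125b. WT held 8.0, 6.90 and 9.93 CPM. Replicate 1 was the highest library of each of the 3 hairpin and microRNA groups, and the groups overlapped. The log2 fold change was 2.17 in shArid3a (SE 0.79, adjusted p = 0.136) and 1.92 in miR-125b (SE 0.74, adjusted p = 0.0804), both against the same sh-ctrl libraries. Single libraries moved these values. Without shArid3a replicate 1 the first was 0.80, without miR-125b replicate 1 the other was 1.05, and without sh-ctrl replicate 1 they were 3.0 and 2.76, the latter called (adjusted p = 0.0399). With the replicate block the value for miR-125b was 1.88 and was called (adjusted p = 0.00295).

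Tspan33 (chr6:29694222-29718559, plus strand, ENSMUSG00000001763) was called in both comparisons of miR-125b. It stood at 43.4, 27.4 and 37.0 CPM in sh-ctrl, at 38.6 and 26.5 CPM in shArid3a, and at 89.98, 67.3 and 64.2 CPM in miR-125b, with every miR-125b library above every library of the other 2 groups. It rose with miR-125b by 1.04 on the log2 scale against sh-ctrl (SE 0.21, adjusted p = 0.0110), and this held in all 15 other settings, at 0.84 to 1.18. Against shArid3a it rose by 1.18 (SE 0.25, adjusted p = 0.0478), a call that was lost in 7 of 14 other settings, at adjusted p-values up to 0.170 and with log2 fold changes of 0.93 to 1.48 over all 14. Those 7 were library totals, a fit of only the groups compared, and leaving out any 1 of the 5 libraries. In LUC it was at 75.2, 89.0 and 72.8 CPM and in the libraries labelled Arid3a at 30.9, 76.5 and 62.6 CPM (log2 fold change -0.48, adjusted p = 0.389). WT held 7.33, 6.90 and 5.15 CPM, under every Gata1s library.

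Car2 (chr3:14886273-14900770, plus strand, ENSMUSG00000027562) was abundant in every group. It was at 388, 429 and 430 CPM in LUC and 293, 336 and 307 CPM in the libraries labelled Arid3a, with no overlap. The log2 fold change of -0.42 (SE 0.08) missed the threshold (adjusted p = 0.0839). It was at 312, 330 and 449 CPM in sh-ctrl, 416 and 510 CPM in shArid3a and 377, 348 and 272 CPM in miR-125b, all 3 overlapping. WT held 99.5, 96.3 and 92.8 CPM, below every Gata1s library.

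Tfrc (chr16:32608920-32632794, plus strand, ENSMUSG00000022797) was the highest member in CPM in the table with LUC. It stood at 727, 699 and 655 CPM in LUC and at 546, 1114 and 1012 CPM in the libraries labelled Arid3a, where replicate 1 lay below and the other two above all controls. It was at 203, 223 and 229 CPM in sh-ctrl, at 212 and 266 CPM in shArid3a, and at 164, 197 and 143 CPM in miR-125b. WT held 393, 495 and 489 CPM, between the tables. No miR-125b library reached the lowest sh-ctrl library, but the log2 fold change of -0.38 (SE 0.15) did not pass (adjusted p = 0.0888). With library totals, which moved the median of all genes from -0.03 to -0.22, it was -0.57 and was called (adjusted p = 0.0269). The control groups LUC and sh-ctrl differ in doxycycline time, transgene and table, and this gap was not tested.

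**Figure D1:**
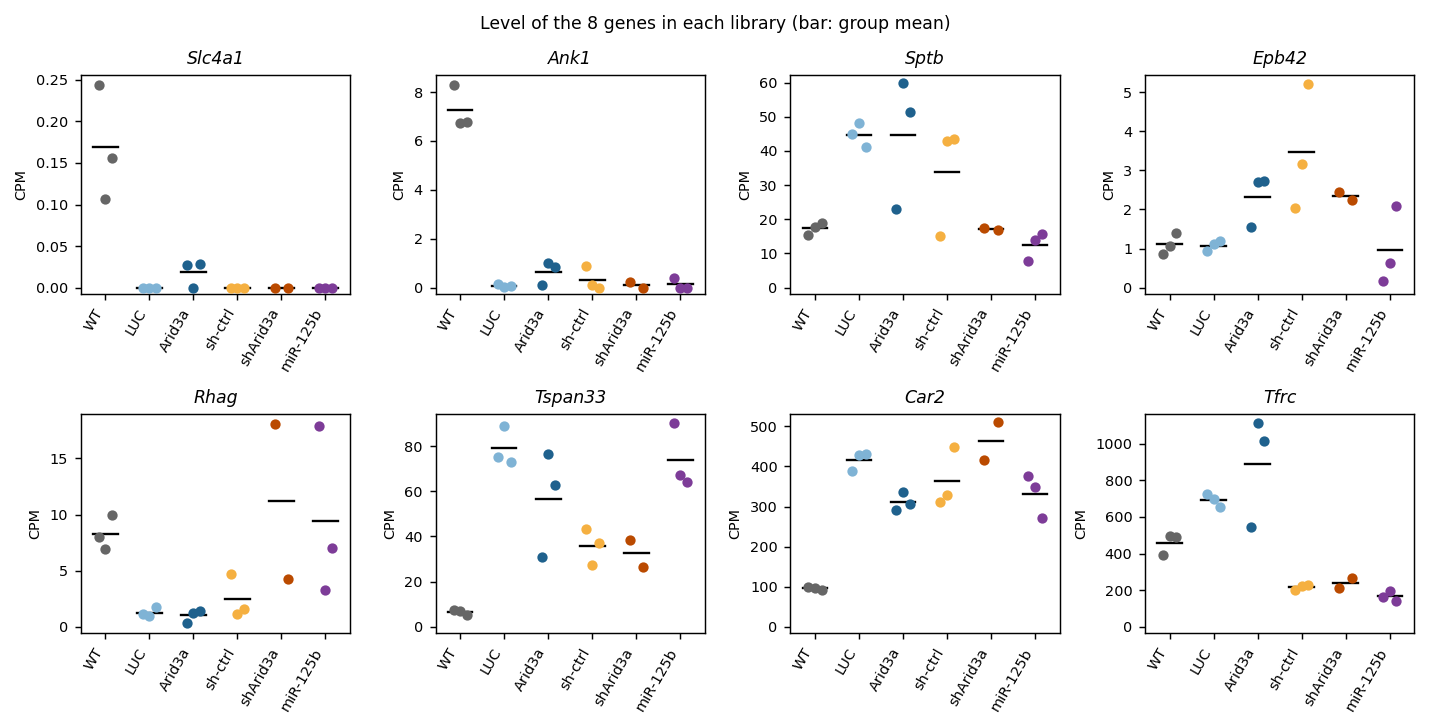
Level of each of the 8 genes in CPM (linear axes) in the 17 libraries of 6 groups, with 1 point per library and a bar at the group mean. Slc4a1 lies at or near 0, Ank1 is higher in each WT library than in any other, Tspan33 is higher in every miR-125b library than in any sh-ctrl or shArid3a library, and replicate 1 of the group labelled Arid3a lies apart for Sptb, Tspan33 and Tfrc.

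Compared per kilobase of gene length, the members formed steps, whose order differed between groups. In LUC, mean levels were 172 CPM per kb for Car2, 112 for Tfrc, 15.2 for Tspan33, 3.68 for Sptb, 0.546 for Rhag, 0.199 for Epb42 and 0.00585 for Ank1, with Slc4a1 at 0. Car2 and Tfrc together made up 87.6% to 96.7% of the summed level per kb of the 8 members in each library. Tfrc exceeded Car2 in WT (74.2 against 39.7 CPM per kb) and in the group labelled Arid3a (144 against 129, though 88.3 against 121 in its replicate 1), and Car2 exceeded Tfrc in LUC, sh-ctrl (150 against 35.3), shArid3a (191 against 38.6) and miR-125b (137 against 27.1). Genes of the late membrane complex were thus the 4 lowest members in LUC, while spectrin, a skeletal chain, stood above them. This order did not hold in every group. Mean Rhag was above mean Sptb in WT (3.54 against 1.43 CPM per kb), shArid3a (4.78 against 1.42) and miR-125b (4.01 against 1.03). It was below Sptb in sh-ctrl (1.06 against 2.78) and in the group labelled Arid3a (0.438 against 3.68).

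**Figure D2:**
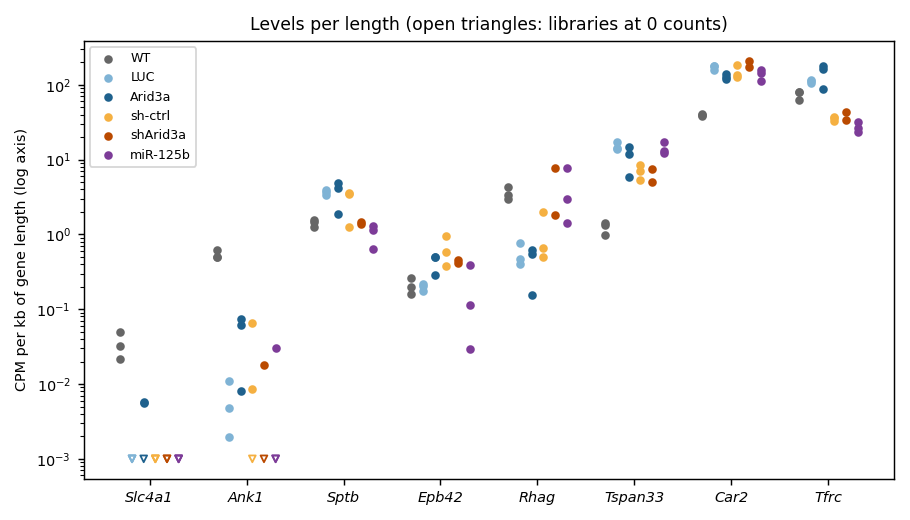
CPM per kb of gene length on a log axis for the 8 members, with 1 point per library coloured by group and open triangles for libraries with 0 counts. In LUC the means run from 172 CPM per kb for Car2 to 0.00585 for Ank1, with no count of Slc4a1.

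Ordered by mean CPM, neighbouring groups mostly overlapped in the range of their libraries. For Sptb the order was LUC, Arid3a, sh-ctrl, WT, shArid3a and miR-125b, and neighbours overlapped except shArid3a and miR-125b. For Epb42 it was sh-ctrl, shArid3a, Arid3a, WT, LUC and miR-125b, with a gap between Arid3a and WT. For Rhag the order was shArid3a, miR-125b, WT, sh-ctrl, LUC and Arid3a, with a gap between WT and sh-ctrl. Tspan33 ran from LUC through miR-125b, Arid3a, sh-ctrl and shArid3a to WT, and Car2 from shArid3a through LUC, sh-ctrl, miR-125b and Arid3a to WT, each with WT apart. Tfrc ran from Arid3a and LUC, which overlapped, to WT, then to shArid3a and sh-ctrl, which overlapped, and last miR-125b. Levels in different tables were scaled separately.

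With the group labelled Arid3a against LUC, none of the 6 members tested was called by edgeR, as none of the 13495 genes was (0%). At an unadjusted p under 0.05 there were 2 members, Epb42 and Car2, and 2885 genes (21.4%). DESeq2 called 1342 of 13495 genes and the same 2 members. These counts moved with 1 library. Without Arid3a replicate 1, edgeR called 3198 of 13789 genes and 5 members. Among them Tfrc was at 0.62 (adjusted p = 0.000646), Sptb at 0.32 (adjusted p = 0.0377), Epb42 at 1.34 (adjusted p = 0.0143) and Car2 at -0.36 (adjusted p = 0.0058). Ank1 was also among them. It passed the filter only through the Arid3a libraries left, at 34 and 30 counts against 5, 1 and 2 in LUC. Its call is therefore not read as a result. Sptb had a log2 fold change of 0.00 with all libraries. Over the 6 members tested the median log2 fold change was -0.16, with 2 positive and 4 negative, beside 0.01 over all genes.

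**Figure D3:**
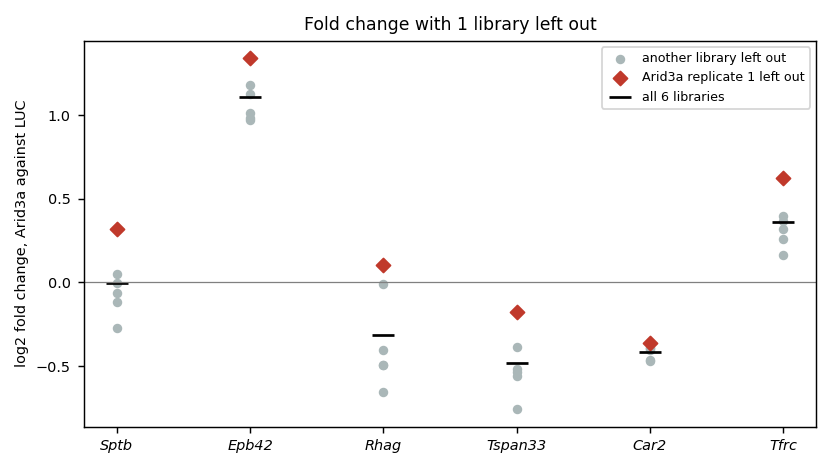
Log2 fold change of the 6 members tested in the group labelled Arid3a against LUC, with all 6 libraries (bar), without Arid3a replicate 1 (diamond) and without each other library (grey points). Leaving out Arid3a replicate 1 moved Sptb to 0.32 and Tfrc to 0.62, farther than any other library for Tfrc.

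With shArid3a against sh-ctrl, none of the 7 members tested was called by edgeR, and 12 of 14004 genes were (0.0857%). Sptb and Rhag had an unadjusted p under 0.05, as did 25.8% of all genes, and DESeq2 called 1600 genes and 0 members. The median log2 fold change of the members was -0.14, beside -0.02 over all genes. Library totals gave 20 genes, 8 higher and 12 lower. The summed level of ribosomal RNA-like genes was 3068 to 3463 CPM in shArid3a and 2590 to 3389 CPM in miR-125b, against 341 to 658 CPM in sh-ctrl. Without these genes in the fit, Sptb was at -0.99 and Rhag at 2.16 in shArid3a, close to the values with them, and 0 genes were called.

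With miR-125b against sh-ctrl, Tspan33 rose and Sptb fell, which is 2 of 7 members against 24.4% of all genes tested (3414 of 14004). The share is near the background. Of the 3414 genes 1700 were higher and 1714 lower, and with library totals 890 were higher and 2452 lower. The replicate block added Epb42 and Rhag, to 4 members, with 3687 of 14004 genes called. The median log2 fold change of the 7 members was -0.38, with 2 positive and 5 negative, beside -0.03 over all genes. With miR-125b against shArid3a, 1 of 7 members was called, Tspan33, against 1.35% of genes (189 of 14004), and the median was -0.46 beside -0.01. These comparisons share libraries and are not independent of each other.

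**Figure D4:**
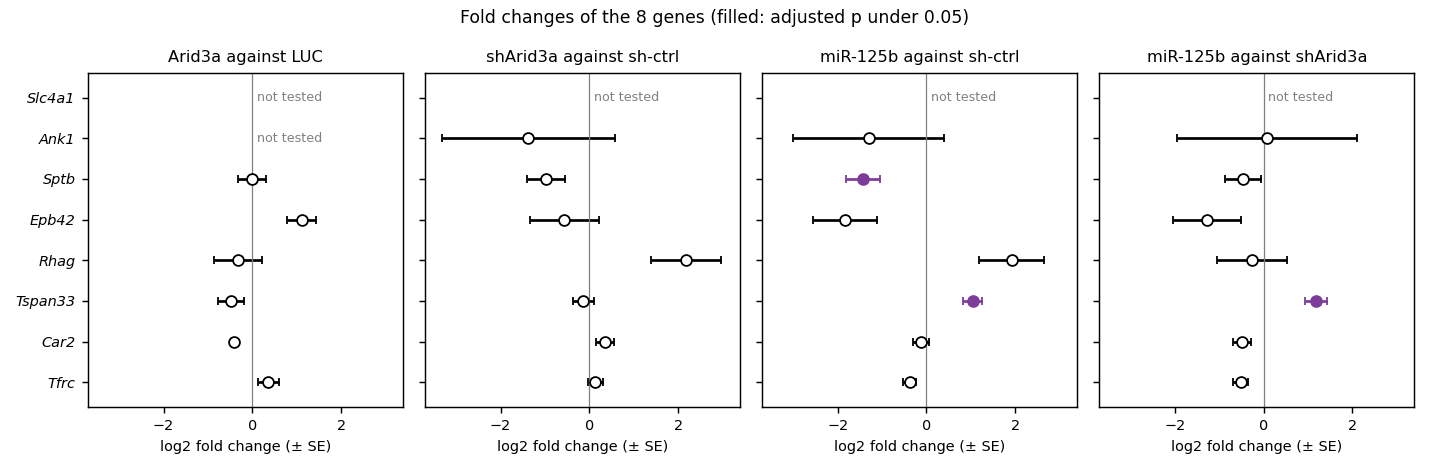
Log2 fold change with its SE for the members tested in each of the 4 comparisons (6 in Arid3a against LUC, 7 in the others), filled where the adjusted p was under 0.05. Filled points are Sptb (-1.43) and Tspan33 (1.04) in miR-125b against sh-ctrl and Tspan33 (1.18) in miR-125b against shArid3a.

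The other genes of the red cell skeleton and membrane were split with miR-125b. Of 19 tested against sh-ctrl, 2 rose and 3 fell, with a median log2 fold change of -0.31. The count is near the 24.4% of all genes called in that comparison. Epb41, protein 4.1, which ties spectrin to actin, went from 234, 259 and 260 CPM in sh-ctrl to 123, 165 and 158 CPM and fell by 0.76 (adjusted p = 0.0107). The groups did not overlap. Tpm1, a tropomyosin, rose by 0.41 (adjusted p = 0.0318). A further 2 called genes were picked out with their values in view. They were the mechanically gated channel Piezo1, which fell by 1.21, and the amino acid transporter Slc43a1, which rose by 0.54. No gene of this list was called by edgeR in the other 3 comparisons. An unadjusted p under 0.05 was reached by 9 of 19 in Arid3a against LUC, by 2 in shArid3a against sh-ctrl and by 5 when miR-125b was set against shArid3a, beside 21.4%, 25.8% and 14.5% of all genes.

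Of 14 blood group and surface genes tested, 3 rose and 1 fell with miR-125b against sh-ctrl, at a median of -0.10, beside 24.4% of all genes called. The urea transporter Slc14a1, which carries the Kidd antigen in humans, went from 97.2, 91.3 and 131 CPM to 191, 213 and 255 CPM and rose by 1.04 (adjusted p = 0.00613). Kcnn4, the calcium-activated potassium channel, went from 102, 75.6 and 87.3 CPM to 195, 149 and 171 CPM and rose by 0.96 (adjusted p = 0.00739). Both lay in ranges that did not overlap. Icam4, an adhesion molecule of the red cell surface, rose by 0.88 (adjusted p = 0.0264). The gene that fell, picked out with its values in view, was Ermap, at 1.34 CPM or less in sh-ctrl and 0.0319 CPM or less in miR-125b. Slc14a1 also rose against shArid3a, by 0.94 (adjusted p = 0.0449).

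Around Tfrc, 15 genes of transferrin uptake and iron handling were tested, of which 3 rose and 2 fell with miR-125b against sh-ctrl, at a median of -0.05, beside 24.4% of all genes called. The mitochondrial iron importer Slc25a37 went from 90.9, 80.8 and 94.8 CPM to 44.8, 60.6 and 52.5 CPM and fell by 0.76 (adjusted p = 0.0128). Snx3, which recycles the transferrin receptor, rose by 0.59 (adjusted p = 0.0148), and the iron chaperone Pcbp1 rose by 0.54 (adjusted p = 0.0236). The others, picked out with their values in view, were Fth1, ferritin heavy chain, which rose by 0.77 (adjusted p = 0.0287), and Aco1, iron regulatory protein 1, which fell by 0.63 (adjusted p = 0.0250). Aco1 is known to bind stem-loops of the kind printed above for Tfrc. Its binding was not measured here, and a link between its level and that of Tfrc was not tested. Transferrin itself (Trf) was at 0.101 CPM or less in every Gata1s library and at 2.09 to 3.11 CPM in WT. In shArid3a against sh-ctrl, Slc25a37 was at -0.83 (adjusted p = 0.0989), Snx3 at 0.46 (adjusted p = 0.115) and Pcbp1 at 0.46 (adjusted p = 0.123). These have the same signs as with miR-125b. None of the 15 was called by edgeR in the other 3 comparisons. An unadjusted p under 0.05 was reached by 5 in Arid3a against LUC, by 5 in shArid3a against sh-ctrl and by 1 when miR-125b was set against shArid3a, where 21.4%, 25.8% and 14.5% of all genes reached it.

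**Figure D5:**
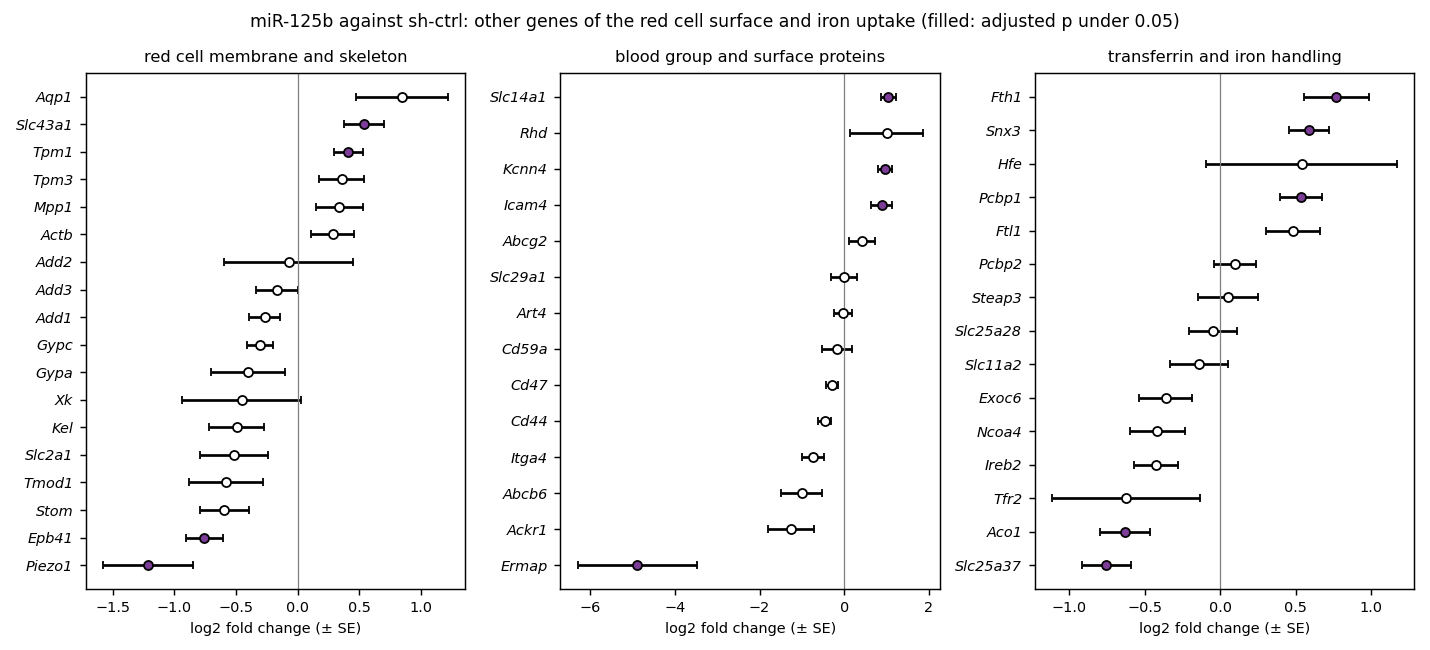
Log2 fold change with its SE in miR-125b against sh-ctrl for tested genes of 3 lists (red cell membrane and skeleton without 1 gene, blood group and surface proteins, transferrin and iron handling), filled where the adjusted p was under 0.05. Filled points lie on both sides of 0 in each list, among them Epb41 (-0.76), Slc14a1 (1.04) and Slc25a37 (-0.76).

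Among 8 other carbonic anhydrases tested, 1 was called with miR-125b against sh-ctrl, beside 24.4% of all genes. This was Car3, which rose from 3.50, 4.40 and 4.62 CPM in sh-ctrl to 8.15, 11.6 and 8.52 CPM (log2 fold change 1.18, adjusted p = 0.0158). Car1, the other red cell enzyme of the family, was at 3.31, 6.11 and 4.12 CPM in LUC and at 1.07, 0.588 and 1.03 CPM in the libraries labelled Arid3a. Its log2 fold change of -2.32 missed the threshold (adjusted p = 0.0760). None of 4 genes tested among the tetraspanins related to Tspan33 and their partner protease Adam10 was called in any comparison. With miR-125b against sh-ctrl, 2 of them had an unadjusted p under 0.05, as did 39.8% of all genes. They were Tspan14, with a log2 fold change of -0.43 (adjusted p = 0.0537), and Tspan17, with one of -1.84 (adjusted p = 0.0753). Tspan17 was low, at 0.079 to 3.97 CPM in all 17 libraries. Adam10 had a log2 fold change of -0.33 (unadjusted p = 0.0563, adjusted p = 0.136). Of 7 paralogs of the members, 1 rose and 1 fell with miR-125b against sh-ctrl, again beside 24.4% of all genes. The bicarbonate transporter Slc4a7, a relative of band 3, went from 33.1, 27.0 and 32.0 CPM to 9.94, 10.5 and 9.78 CPM and fell by 1.61 (adjusted p = 0.00150). It also fell by 1.52 against shArid3a (adjusted p = 0.00563). Sptan1, a spectrin chain of non-erythroid cells, rose by 0.51 (adjusted p = 0.0460).

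Globin and heme genes were called in the same comparison. Of 13 tested in miR-125b against sh-ctrl, 1 rose and 4 fell, at a median of -0.71, beside 24.4% of all genes called. Cpox, an enzyme of heme synthesis, went from 124, 84.7 and 142 CPM to 31.7, 31.9 and 32.3 CPM and fell by 1.87 (adjusted p = 0.00548). Fech, which inserts iron to form heme, fell by 0.71 (adjusted p = 0.00648). The gene that rose was Alad, also an enzyme of heme synthesis, by 0.69 (adjusted p = 0.00909). Of 9 erythroid transcription factors 1 rose with miR-125b, Lmo2, by 0.73 (adjusted p = 0.0308), while Gata1 itself was at 316, 442 and 534 CPM in sh-ctrl and 245, 282 and 407 CPM in miR-125b (log2 fold change -0.47, adjusted p = 0.162). Markers of other cells were called there too. Against sh-ctrl, 7 of 15 megakaryocyte markers fell and 1 rose, 3 of 7 myeloid markers rose, and 2 of 10 mast cell and basophil markers rose, beside 24.4% of all genes called. Both hepatocyte markers tested rose, Afp by 2.5 (adjusted p = 0.0141) and Apoa2 by 2.12 (adjusted p = 0.0214), at means of 3.73 and 1.20 CPM in miR-125b, and 1 of 4 macrophage markers, Axl, fell by 1.80 (adjusted p = 0.0132). Their part in the values of the members was not tested.

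Over the 14 Gata1s libraries, after subtracting the mean of each table's controls from log2 CPM, the members did not vary as 1 unit. Pearson's r was 0.81 for Sptb and Epb42, 0.70 for Rhag and Tspan33, -0.74 for Epb42 and Tspan33 and -0.63 for Sptb and Rhag. These are descriptions over libraries that share groups and depth. Of 8545 other genes, the most alike to Sptb were D030028A08Rik (0.971) and Zfp664 (0.966), to Epb42 Pdlim5 (0.975) and Atg2b (0.954), and to Rhag Tspan3 (0.901) and Noct (0.889). For Tspan33 they were Tada2a (0.906) and Kctd1 (0.882), for Car2 Wdr92 (0.900) and Nfyb (0.896), and for Tfrc Eri1 (0.912) and Utp15 (0.891).

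Promoters, 250 bases before to 50 after a start site, were found in RefSeq (GRCm38.p6) for 5 members, with 6 promoters. The letters GATA with an A or T before them and an A or G after them were searched on both strands, since GATA1 is the factor altered in these cells. They occurred in 1 place each in Epb42, 226 bases before the start site, in Rhag, 31 bases before it, and in Sptb, 12 bases after it, and not in those of Tfrc or Tspan33. Of 32851 promoters 29.76% hold such letters, and 49.47% hold CCNCNCCC on either strand, the form bound by KLF1 and related factors. These 3 promoters, of a skeletal protein and a pair of membrane proteins, are shown with both kinds of match in capitals.
Epb42, chr2:121036828-121037127, minus strand: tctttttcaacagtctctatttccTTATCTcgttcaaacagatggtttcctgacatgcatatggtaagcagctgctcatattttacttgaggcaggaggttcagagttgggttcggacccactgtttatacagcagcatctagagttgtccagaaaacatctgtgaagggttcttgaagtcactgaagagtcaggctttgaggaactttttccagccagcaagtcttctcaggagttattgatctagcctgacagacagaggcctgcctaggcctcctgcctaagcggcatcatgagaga
Rhag, chr17:40810899-40811198, plus strand: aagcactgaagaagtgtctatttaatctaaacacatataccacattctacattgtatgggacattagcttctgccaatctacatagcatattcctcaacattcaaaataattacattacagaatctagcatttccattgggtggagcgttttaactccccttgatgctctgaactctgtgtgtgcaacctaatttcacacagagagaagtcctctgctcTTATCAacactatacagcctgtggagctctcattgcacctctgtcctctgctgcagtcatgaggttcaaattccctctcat
Sptb, chr12:76710498-76710797, minus strand: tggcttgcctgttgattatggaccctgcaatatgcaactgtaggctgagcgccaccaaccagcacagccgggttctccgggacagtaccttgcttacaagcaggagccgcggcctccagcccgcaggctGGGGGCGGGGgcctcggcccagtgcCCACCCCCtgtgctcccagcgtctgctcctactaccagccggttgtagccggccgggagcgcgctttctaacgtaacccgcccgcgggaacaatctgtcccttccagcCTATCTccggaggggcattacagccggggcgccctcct
A match describes these letters in this window and is not a measured site.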

How the data were processed

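Total RNA was sequenced from 17 libraries of mouse fetal liver cells in 6 groups that follow the labels. The authors deposited raw counts per gene, with no normalization, made with fastp, HISAT2 2.0.5 and featureCounts on mm10, per the submitters' processing notes. The annotation and the use of strand are not given in the sources used here. The 3 tables were joined by Ensembl identifier. No shArid3a library with the number 2 was used here.

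From the counts, edgeR 4.0.16 in R 4.3.3 was run on each whole table (TMM scaling, filterByExpr, glmQLFit and glmQLFTest with 1 term per group, Benjamini-Hochberg adjusted p under 0.05 over all genes tested). Of the 8 members, 6 passed the filter in the table with LUC and 7 in the table with sh-ctrl. The 8 libraries of the latter were fitted together, so the spread of the 2 shArid3a libraries is taken from all 3 groups. WT was not tested against other groups. Standard errors were derived from the F statistics, and likeness between genes used log2 CPM with a prior count of 2. The procedure was also run on simulated counts with a constant spread for all genes and no deviating library. That run does not show how it handles libraries such as Arid3a replicate 1. Positions and 3′ UTRs came from GENCODE M21 (GRCm38), and microRNA and promoter sequences from RefSeq.

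Named genes were the members, Arid3a and Gata1, up to 3 genes per list and comparison with the smallest unadjusted p, and the 2 genes most like each member among genes whose mean log2 CPM reached 3 or more. The members and lists were chosen with earlier results of these data known. The values of 1 called gene of the red cell membrane list are not reported here.

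Replicate numbers come from the labels. Deviations of same-numbered libraries from their group means correlated at 0.427, 0.151 and 0.294 for miR-125b and sh-ctrl. For miR-125b replicate 2 the sh-ctrl library most alike was replicate 3. A replicate block is given beside those results as an alternative where it changes a call. Alternatives were DESeq2 1.42.0, library totals, RLE factors, no filter, a filter of 10 counts in every library, a robust fit, a replicate block, the removal of ribosomal RNA-like genes, a fit of only the groups compared, and leaving out each library in turn.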

Additional observations from a re-analysis of the deposited data

How the results depend on the processing

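Slc4a1 lay under the floor of 3 counts in every Gata1s library, with 2 counts out of 498029968 over all 14. Ank1 runs from 0 to 34 counts there. Epb42 and Rhag rest on few counts, and 2 or 3 libraries per group limit all calls. The cause of the changes given here was not tested.

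For Arid3a against LUC, 0 genes were called. DESeq2 gave 1342 of 13495 genes and 2 members, and no filter gave 71 genes. Leaving out Arid3a replicate 1 gave 3198 of 13789 genes and 5 members, of which Ank1 passed the filter only through its high group. Leaving out any other library gave 0 of each. Sptb, at 0.00 with all libraries, was 0.0040 with DESeq2, 0.036 with library totals, 0.0035 with RLE factors, 0.05 without LUC replicate 2, and ran from -0.27 to 0.32 (without Arid3a replicate 1) on leaving out 1 library. Rhag ran from -0.65 to 0.10, the latter also without Arid3a replicate 1. For shArid3a against sh-ctrl, 12 genes were called. DESeq2 gave 1600, library totals 20, a filter of 10 counts in every library 19 and a robust fit 19. No filter gave 1237 of 21696 genes and 2 members, Sptb and Rhag. Without ribosomal RNA-like genes 0 were called, and leaving out 1 sh-ctrl library gave 2 to 11. On leaving out 1 library Tspan33 ran from -0.44 to 0.11 and Tfrc from -0.035 to 0.29, changing sign without shArid3a replicate 3, and Tfrc was -0.069 with library totals.

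For miR-125b against sh-ctrl, 3414 genes and 2 members were called. Leaving out 1 library gave 734 to 2872 genes, lowest without sh-ctrl replicate 3, and 1 to 3 members. No filter gave 3988 of 21696 genes and 4 members. Car2 ran from -0.24 to 0.037, the latter without sh-ctrl replicate 3. For miR-125b against shArid3a, 189 genes and 1 member were called, against 729 genes with DESeq2, 715 with no filter, 0 members with library totals and with only the groups compared, and 12 to 329 genes and 0 members on leaving out 1 library, lowest without shArid3a replicate 1. Ank1 was -0.0026 with library totals and ran from -0.87 (without shArid3a replicate 3) to 5.29 on leaving out 1 library. Rhag ran from -1.12 to 1.12, positive without shArid3a replicate 1 and, at 0.17, without miR-125b replicate 2.

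With the replicate block, miR-125b against sh-ctrl gave 3687 of 14004 genes and 4 members. The labels name no shared source in any comparison, so the numbers are not known to pair the libraries. In the other comparisons there were only 2 pairs (correlations 0.431 and 0.161 for shArid3a with sh-ctrl, 0.237 and 0.200 for miR-125b with shArid3a) or not every pair was over 0.1. There the block gave 0 genes for Arid3a against LUC (same-numbered correlations 0.158, 0.365 and 0.00840), 15 for shArid3a against sh-ctrl and 255 for miR-125b against shArid3a, where Rhag was 0.25, and changed no other call of a member.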
